A study of Homo sapiens with 9 samples.

Results

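The transcriptome of cells depleted of dyskerin was compared with that of control cells in 6 of the 9 nuclear RNA libraries of the series, 3 from siDyskerin and 3 from siControl. U2OS is a human bone osteosarcoma line, and all groups received 15 nM of an siRNA with RNAiMAX for 48 hours before nuclei were isolated. The other 3 libraries, from siGAR1, were depleted of GAR1, a core partner of dyskerin, and serve as a second comparison against the same control libraries. Each group holds 3 replicates that the study calls biological. Read numbers were summed per gene, and 18444 genes passed the count filter. Of these, 304 contain an annotated small nucleolar or small Cajal body RNA gene within their span on the same strand and 208 are short noncoding RNA genes. The remaining 17932 genes, which do not host small RNAs, are the subject here, with the weight on changes smaller than 2-fold. The knockdown was transient, and effects of the siRNA other than the loss of dyskerin cannot be told apart from it in these libraries.

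Dyskerin, encoded by DKC1, is the catalytic subunit of the H/ACA ribonucleoprotein, where NHP2, NOP10 and GAR1 join it on a box H/ACA RNA. The complex converts uridines to pseudouridine in ribosomal and spliceosomal RNA, and the same proteins bind the telomerase RNA. H/ACA RNAs are mostly cut from the introns of host genes, and they are lost when the complex is not there to hold them. Mutations in DKC1 cause dyskeratosis congenita.

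DKC1 had 20937, 22716 and 20777 normalized counts in siControl and 3075, 3124 and 3099 in siDyskerin. The groups did not overlap (log2 fold change -2.79 with a standard error of 0.07, adjusted p = 1.5e-11). Here and throughout, p comes from edgeR's quasi-likelihood test and is adjusted over all tested genes. Normalized counts are summed transcript reads scaled to the mean library. Because a read appears to have been counted in each transcript it fitted, they compare libraries and not genes. DKC1 hosts small RNAs itself and is outside the 17932 genes. The other core proteins did not pass the test, with log2 fold changes of 0.21 for GAR1, -0.11 for NHP2 and 0.02 for NOP10 (adjusted p = 0.22, 0.38 and 0.94). Libraries held 48838756 to 90698675 summed reads. Of 14 epithelial markers, 11 were under 1 TPM (a level scaled for transcript length and library) in all 6 libraries and the 14 summed to 4.86 to 6.39 TPM, whereas 8 mesenchymal markers summed to 3077 to 3782 TPM. Of the 8, COL1A2 and TWIST1 were under 1 TPM.

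Most of the response was small. At an adjusted p under 0.01, 1106 of the 17932 genes changed, 557 upward (3.11%) and 549 downward (3.06%), and 88.9% of them changed by no more than 2-fold. These were 483 higher genes (2.69% of those tested) and 500 lower genes (2.79%). Both sets were required to have the 3 siDyskerin libraries entirely above or below the 3 siControl libraries. This is a condition and not a further result, and 0 genes of at most 2-fold change past the threshold had overlapping groups. Groups were apart in 31.2% of all 17932 genes. At an unadjusted p under 0.05, 2365 of the 17932 were higher and 2285 lower. The median absolute log2 fold change of the small changes was 0.50, with quartiles of 0.40 and 0.65 and a smallest value of 0.25, which is a median gain of 41.1% or a median change of -29.4%. Genes that moved by less than 0.5 on the log2 scale made up 244 of the higher and 246 of the lower genes. Only 74 genes (0.413%) rose and 49 (0.273%) fell by more than 2-fold. The median log2 fold change over all 17932 genes was 0.01. Leaving out siDyskerin 2 left the fewest small changes, 265 higher and 291 lower, followed by siDyskerin 3 at 274 and 305 and siControl 3 at 278 and 335.

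**Figure D1:**
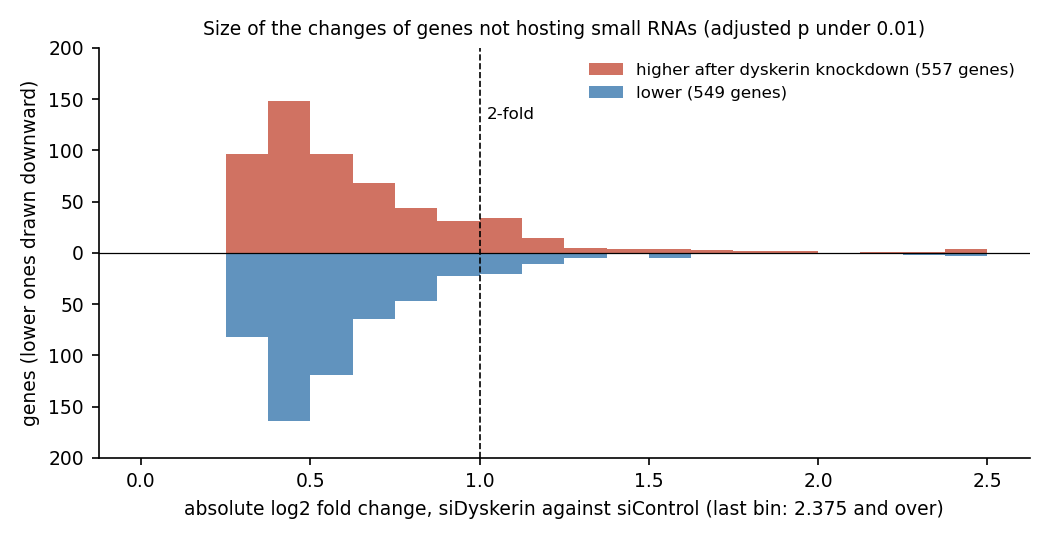
Genes not hosting small RNAs at an adjusted p under 0.01, by absolute log2 fold change, with higher genes drawn upward in red and lower genes downward in blue. The 557 higher and 549 lower genes pile up between 0.25 and 1, left of the dashed 2-fold line.

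The gene count after GAR1 knockdown, against the same control libraries, was 295 higher (1.65%) and 328 lower (1.83%). The siControl libraries enter both comparisons, so both sets of values are given side by side and their likeness is not taken as a result. The median log2 fold change after GAR1 knockdown was 0.27 for the 483 small increases and -0.15 for the 500 small decreases. Set directly against siGAR1, 119 of the 483 were higher in siDyskerin and 216 of the 500 were lower. Over all 17932 genes that contrast had 2.63% higher and 2.45% lower. The 483 and 500 genes were chosen on the siDyskerin libraries that also enter this contrast, so these counts are a description and nothing is read from their excess.

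Part of the antioxidant response rose. NRF2 is a transcription factor that is degraded in resting cells and, when oxidants or electrophiles disable its repressor KEAP1, binds antioxidant response elements in genes of glutathione synthesis, quinone reduction and iron handling. Of 32 tested targets on the NRF2 list, 11 rose and 0 fell (34.4% and 0%), against 3.11% and 3.06% of all genes. Of the 32, 28 had a log2 fold change above 0 (median 0.31, against 0.01 for all genes). The 11 include AKR1C2, which was nearly absent from siControl. It could pass the count filter only through other libraries and could only be called higher, so it lends no weight to the count. The count of members that rose was 8 to 10 when 1 library was left out, lowest without siControl 1, siControl 2 and siDyskerin 2. At an unadjusted p under 0.05, 18 were higher and 2 lower. At that level 2365 of all 17932 genes were higher and 2285 lower. DESeq2 called 14 higher and 0 lower, and limma-voom 11 and 0. Over all genes, increases of at most 2-fold numbered 483 by edgeR, 834 by DESeq2 and 470 by limma-voom. NFE2L2, the gene of NRF2 itself, hosts a small RNA and stands outside these counts, with 6264, 6932 and 6832 normalized counts in siControl and 7937, 8488 and 8779 in siDyskerin (log2 fold change 0.33 with a standard error of 0.06, adjusted p = 0.0034).

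NQO1, the quinone reductase often used to report NRF2 activity, had 11409.9, 11842 and 11063 normalized counts in siControl and 15609, 16173 and 15832 in siDyskerin. All siDyskerin libraries were above all siControl libraries (log2 fold change 0.47 with a standard error of 0.06, adjusted p = 1.4e-04). HMOX1, which degrades heme, had 1131, 1056 and 989.6 normalized counts in siControl and 2048, 1879.6 and 1772 in siDyskerin (log2 fold change 0.84 with a standard error of 0.10, adjusted p = 6.6e-05). GCLM, the modifier subunit of the enzyme that limits glutathione synthesis, had 1328, 1422 and 1532 normalized counts in siControl and 2101, 2123 and 2085 in siDyskerin (log2 fold change 0.56 with a standard error of 0.07, adjusted p = 1.8e-04). SLC7A11, the cystine importer that feeds the same pathway, rose by more than 2-fold, with 3145, 3941 and 3839 normalized counts in siControl and 7432, 8122 and 7666 in siDyskerin (log2 fold change 1.09, adjusted p = 2.9e-06). In each of these genes the groups were apart.

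The selective autophagy receptor SQSTM1 rose with them (log2 fold change 0.54, adjusted p = 1.5e-04), as did OSGIN1 (0.69, adjusted p = 2.2e-04), the thioredoxin reductase TXNRD1 (0.31, adjusted p = 0.0054) and the aldo-keto reductases AKR1B10 (0.93, adjusted p = 0.0064) and AKR1C3 (1.07, adjusted p = 6.0e-04). AKR1C2 was nearly absent from control libraries, with 0, 0 and 3.68 normalized counts in siControl and 12.3, 21.9 and 14.1 in siDyskerin, so no fold is given, and the AKR1C genes resemble each other enough for reads to be shared. TRIM16L (1.11, adjusted p = 2.7e-07) is a near copy of TRIM16, which is not on the list and rose as well (0.77, adjusted p = 8.0e-06), so their reads are uncertain in the same way. AKR1C2 did not pass the test without siControl 1, siControl 2 or siDyskerin 2 (adjusted p up to 0.020). AKR1B10 did not pass the test with 1 library left out, unless that was siControl 3 or siDyskerin 1 (adjusted p up to 0.036). TXNRD1 did not pass the test in each of the 6 fits that left out 1 library (adjusted p up to 0.039). AKR1B10 also missed the threshold with length-scaled counts or transcript length offsets (adjusted p up to 0.013).

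After GAR1 knockdown the NRF2 list had a median of 0.09, with 3 of 32 members higher and 0 lower, beside 1.65% and 1.83% of all genes. Values side by side were 0.84 and 0.84 for HMOX1, 0.47 and 0.22 for NQO1, and 1.09 and 0.16 for SLC7A11. In the direct contrast 6 members were higher in siDyskerin than in siGAR1 and 0 lower, beside 2.63% and 2.45% of all genes. SLC7A11 differed between the knockdowns (difference 0.93, adjusted p = 1.2e-05), as did OSGIN1 (difference 0.73, adjusted p = 2.1e-04). For HMOX1 the difference was 0.01 (adjusted p = 0.98).

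**Figure D2:**
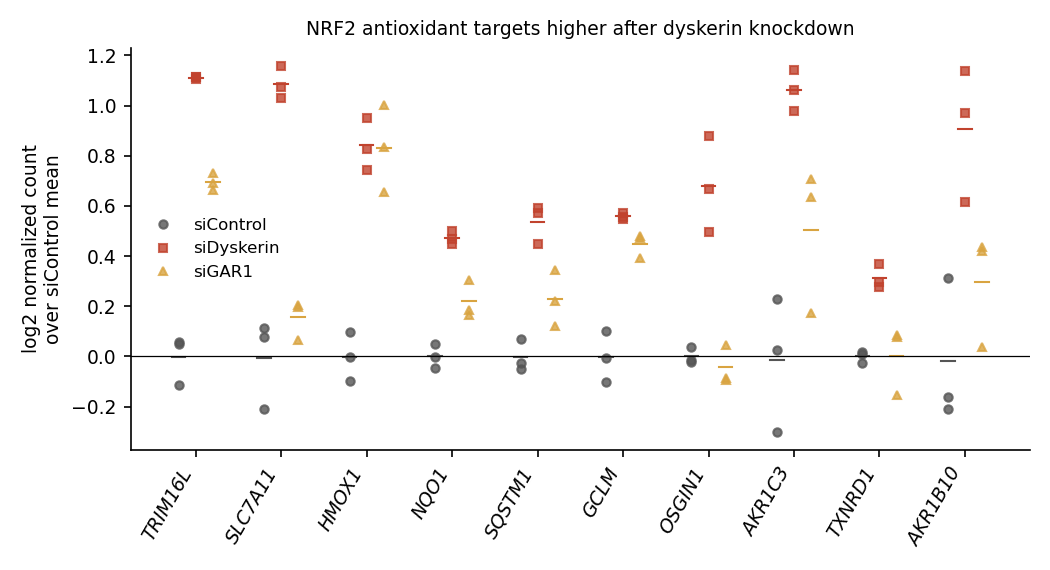
Log2 of the normalized count in each library over the siControl mean, for 10 of the 11 NRF2 targets that rose (AKR1C2 is left out as its control counts are near 0), with circles for siControl, squares for siDyskerin, triangles for siGAR1 and short bars for group means. Every siDyskerin square lies above every siControl circle of the same gene.

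The core of the antioxidant response element, TGACNNNGC on either strand, was searched in the 250 bases before each gene's start on GRCh38. It was found in 7 of 31 promoters of the list and in 2 of 10 of those that rose, against 11.7% of 14162 protein-coding promoters. A match is a description of letters. The 120 bases before the start are shown for the members that rose and hold the core, with the core in capitals, for GCLM from chr1:93909431-93909550 on the minus strand and for TXNRD1 from chr12:104215659-104215778 on the plus strand.
GCLM: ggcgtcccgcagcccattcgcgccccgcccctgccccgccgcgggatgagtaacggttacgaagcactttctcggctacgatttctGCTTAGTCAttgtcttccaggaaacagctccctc
TXNRD1: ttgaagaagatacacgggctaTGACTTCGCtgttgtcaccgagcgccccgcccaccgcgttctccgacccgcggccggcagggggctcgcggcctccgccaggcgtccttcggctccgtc

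ATF4 is the transcription factor of the amino acid and integrated stress response, and its targets differed between the knockdowns. After dyskerin knockdown 6 of 38 targets rose and 1 fell, which is 15.8% and 2.63% beside 3.11% and 3.06% of all genes, with a median of 0.02. The 6 include SLC7A11, which is also counted among the NRF2 targets that rose, so the lists are not separate. After GAR1 knockdown 0 rose and 14 fell, with a median of -0.34. In the direct contrast 17 of 38 members were higher in siDyskerin than in siGAR1 and 0 lower. Among all genes, 1.65% rose and 1.83% fell after GAR1 knockdown, and 2.63% were higher and 2.45% lower in the direct contrast. Leaving out 1 library left 3 to 4 members that rose after dyskerin knockdown, fewest without siControl 2, siControl 3 and siDyskerin 2.

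PHGDH, the first enzyme of serine synthesis, had 58804, 55057 and 54246 normalized counts in siControl and 76453, 71438 and 71276 in siDyskerin and 38513, 42062 and 42455 in siGAR1. It rose in one knockdown (log2 fold change 0.38, adjusted p = 6.8e-04) and fell in the other (-0.45, adjusted p = 4.6e-04), and the 3 groups did not overlap. The same opposition was seen for ALDH1L2, a mitochondrial folate enzyme, at 0.42 and -0.52 (direct contrast, adjusted p = 4.9e-06). PSPH, the last enzyme of serine synthesis, rose (0.34, adjusted p = 0.0044) and was -0.22 after GAR1 knockdown (adjusted p = 0.061). VLDLR, a lipoprotein receptor, rose too (0.52, adjusted p = 2.5e-04). Of 17 serine and one-carbon enzymes in all, 3 rose and 1 fell (17.6% and 5.88%, beside 3.11% and 3.06% of all genes). The 3 that rose, PHGDH, ALDH1L2 and PSPH, are also counted among the ATF4 targets that rose, so the shares of these lists are not separate. The member that fell was the cytosolic SHMT1 (-0.40, adjusted p = 0.0063). After GAR1 knockdown 0 of the 17 rose and 6 fell, beside 1.65% and 1.83% of all genes. SESN2, a leucine sensor and the ATF4 target that fell, stood at -0.49, adjusted p = 0.0011, and is also counted as lower on the mTORC1 and p53 lists. ALDH1L2 did not pass the test without siControl 2, siControl 3 or siDyskerin 2 (adjusted p up to 0.014). SHMT1 did not pass the test with 1 library left out, unless that was siControl 2 or siDyskerin 1 (adjusted p up to 0.031). PSPH did not pass the test in each of the 6 fits that left out 1 library (adjusted p up to 0.027). ALDH1L2 and PSPH also missed the threshold with length-scaled counts or transcript length offsets (adjusted p up to 0.034).

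Several genes of mitosis fell, each by less than 2-fold. Of 55 tested genes on the G2/M list, 9 fell and 0 rose, which is 16.4% and 0% beside 3.06% and 3.11% of all genes. Of the 55, 46 had a log2 fold change below 0 (median -0.14, against 0.01 for all genes). At an unadjusted p under 0.05, 26 were lower and 1 higher, and at an adjusted p under 0.01 limma-voom called 9 lower and 0 higher and DESeq2 10 and 0. Of all 17932 genes, 2285 were lower and 2365 higher at an unadjusted p under 0.05. Leaving out 1 library left 7 to 11 members that fell, fewest without siControl 2 and siDyskerin 2. In a bulk sample, fewer cells in a phase and less RNA per cell cannot be told apart.

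AURKB, the kinase of the chromosomal passenger complex, moved most, with 5258, 4523 and 4395 normalized counts in siControl and 2565, 2588 and 2304 in siDyskerin (log2 fold change -0.93 with a standard error of 0.08, adjusted p = 6.1e-06). AURKA, the centrosomal kinase, had 42823, 42403 and 40537 normalized counts in siControl and 31749, 33403 and 31430.0 in siDyskerin (log2 fold change -0.38 with a standard error of 0.05, adjusted p = 3.4e-04). MAD2L1, a spindle checkpoint protein, had 4985, 5223 and 5191 normalized counts in siControl and 3483, 3939 and 3843 in siDyskerin (log2 fold change -0.45, adjusted p = 4.0e-04). In all of these the groups were apart. The separase ESPL1 fell (-0.57, adjusted p = 6.3e-04), as did the ubiquitin-conjugating enzyme UBE2S of the anaphase-promoting complex (-0.69, adjusted p = 0.0015), the cell cycle transcription factor MYBL2 (-0.54, adjusted p = 5.2e-04), the midzone bundler PRC1 (-0.38, adjusted p = 6.0e-04) and the kinesins KIF2C (-0.32, adjusted p = 0.0021) and KIF4A (-0.33, adjusted p = 0.0026). KIF2C did not pass the test without siControl 2, siDyskerin 2 or siDyskerin 3 (adjusted p up to 0.014). KIF4A did not pass the test with 1 library left out, unless that was siControl 1 or siDyskerin 3 (adjusted p up to 0.016).

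After GAR1 knockdown the median of these 55 genes was -0.02. In the direct contrast 6 were lower in siDyskerin than in siGAR1 and 0 higher, AURKB (difference -0.91, adjusted p = 8.5e-06) and AURKA (-0.25, adjusted p = 0.0087) among them. Over all genes that contrast had 2.45% lower and 2.63% higher. For ESPL1 the values were -0.57 and -0.40, and the difference did not pass the test (adjusted p = 0.23).

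Promoters of mitotic genes commonly carry a CCAAT box and a cell cycle homology region, here TTTGAA, on either strand. The CCAAT box was found in 43 of 55 promoters of the list and in 7 of 9 of those that fell, against 34.5% of all protein-coding promoters. The cell cycle homology region was found in 31 of 55 and 4 of 9, against 8.23%. The 4 members that fell and hold both are shown by the 120 bases before the start, 5′ to 3′ in the sense of the gene, with both motifs in capitals. They come from chr17:8210576-8210695 on the minus strand for AURKB, chrX:70289984-70290103 on the plus strand for KIF4A, chr12:53268179-53268298 on the plus strand for ESPL1 and chr15:90994536-90994655 on the minus strand for PRC1. In each, TTTGAA stands closer to the start than the nearest CCAAT box or its reverse, ATTGG.
AURKB: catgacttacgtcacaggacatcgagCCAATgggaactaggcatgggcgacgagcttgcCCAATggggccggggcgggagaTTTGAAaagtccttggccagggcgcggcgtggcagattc
KIF4A: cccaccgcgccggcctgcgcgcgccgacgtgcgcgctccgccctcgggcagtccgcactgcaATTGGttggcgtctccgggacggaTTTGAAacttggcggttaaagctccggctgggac
ESPL1: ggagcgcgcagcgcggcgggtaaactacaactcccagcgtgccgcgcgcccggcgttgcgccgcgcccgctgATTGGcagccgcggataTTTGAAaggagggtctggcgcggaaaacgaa
PRC1: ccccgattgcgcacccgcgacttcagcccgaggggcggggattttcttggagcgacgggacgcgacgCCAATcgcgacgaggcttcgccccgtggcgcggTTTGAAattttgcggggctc

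Of 55 genes of S phase entry and replication, 6 fell and 0 rose (10.9% and 0%, beside 3.06% and 3.11% of all genes), with a median of -0.05. With 1 library left out 4 to 6 fell, fewest without siDyskerin 2. The S phase cyclin CCNE1 had 8326, 8010.2 and 7546 normalized counts in siControl and 4312, 4678 and 4019 in siDyskerin, and no siDyskerin library reached the lowest siControl library (log2 fold change -0.88 with a standard error of 0.09, adjusted p = 2.6e-05). After GAR1 knockdown CCNE1 stood at -0.81 (adjusted p = 1.0e-04). RPA1, which coats single-stranded DNA, fell (-0.59, adjusted p = 3.4e-05), with -0.10 after GAR1 knockdown (direct contrast, adjusted p = 2.1e-04). The replication factor GINS1 (-0.54, adjusted p = 5.1e-04), GMNN (-0.50, adjusted p = 7.4e-04) and the activators E2F1 (-0.61, adjusted p = 0.0056) and E2F2 (-0.71, adjusted p = 0.0016) fell as well. Among genes of homologous recombination and the Fanconi anemia pathway 0 rose and 2 fell of 43 (4.65% lower, beside 3.06% of all genes). Those 2 were the translocase RAD54L (-0.72, adjusted p = 1.1e-04) and the helicase BLM (-0.46, adjusted p = 6.0e-04). Among genes of nucleotide synthesis 0 rose and 3 fell of 36 (8.33% lower, beside 3.06% of all genes), with a median of -0.08. They were the ribonucleotide reductase subunit RRM2 (-0.64, adjusted p = 0.0032), CTPS1 (-0.30, adjusted p = 0.0066) and the mitochondrial kinase DGUOK, which fell by more than 2-fold (-1.58, adjusted p = 4.0e-08). E2F2 did not pass the test without siDyskerin 2 (adjusted p up to 0.011). E2F1 did not pass the test with 1 library left out, unless that was siDyskerin 1 (adjusted p up to 0.029). RRM2 did not pass the test with 1 library left out, unless that was siControl 2 (adjusted p up to 0.015). CTPS1 did not pass the test in each of the 6 fits that left out 1 library (adjusted p up to 0.038). E2F1 also missed the threshold with transcript length offsets (adjusted p up to 0.010). RRM2 also missed the threshold with length-scaled counts or transcript length offsets (adjusted p up to 0.014).

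Replication-dependent histone genes, which are transcribed in S phase from clusters on chromosome 6 and elsewhere and mostly make mRNAs without a poly(A) tail, had 8 members that fell and 0 that rose of 38. This is 21.1% lower and 0% higher, beside 3.06% and 3.11% of all genes. The median was -0.24, and 35 of 38 were below 0. H2AC15 had 811, 799.9 and 675 normalized counts in siControl and 439.7, 484 and 449.7 in siDyskerin (log2 fold change -0.74 with a standard error of 0.12, adjusted p = 8.3e-04), and H3C4 had 5138, 4954 and 4723 normalized counts in siControl and 3638, 3595 and 3573 in siDyskerin (log2 fold change -0.46 with a standard error of 0.07, adjusted p = 8.7e-04). The groups were apart in both. After GAR1 knockdown 12 fell and 0 rose, with a median of -0.28, and H3C4 was lower in siGAR1 than in siDyskerin (difference 0.51, adjusted p = 6.1e-04). Over all genes 1.83% fell and 1.65% rose after GAR1 knockdown. The count of members that fell was 2 to 6 with 1 library left out, lowest without siControl 1, siControl 2, siDyskerin 1 and siDyskerin 3, and 4 with length-scaled counts, so single members other than H2AC15 and H3C4 are not named as changed. Histone genes share long stretches of sequence, and a shared read may be counted in more than 1 of them. Whether the members move independently of each other was not tested.

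**Figure D3:**
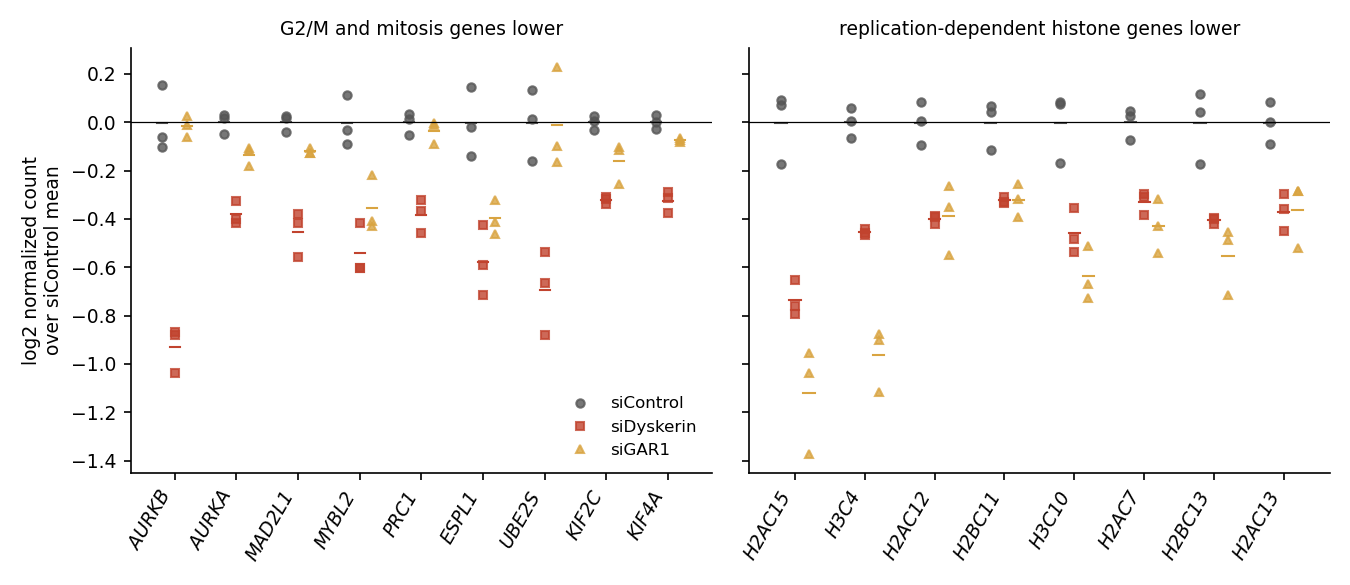
Log2 of the normalized count in each library over the siControl mean, for the 9 G2/M genes (left) and the 8 histone genes (right) that fell, with circles for siControl, squares for siDyskerin, triangles for siGAR1 and short bars for group means. Squares lie below all circles of the same gene in both panels, whereas triangles stay near 0 for AURKB and reach below the squares for H3C4.

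Genes of the ribosome, whose RNA is the main substrate of dyskerin, had few members past the test. Of 51 cytosolic ribosomal protein genes that do not host small RNAs, 2 fell and 0 rose (3.92%, beside 3.06% of all genes), with a median of 0.01, and 1 fell in each of the 6 fits that left out 1 library. RPL26 was the exception in size, with 26979.6, 26814 and 24939 normalized counts in siControl and 14815, 16345 and 14721 in siDyskerin (log2 fold change -0.78 with a standard error of 0.08, adjusted p = 2.6e-05). It stood at 0.13 after GAR1 knockdown and differed between the knockdowns (difference -0.91, adjusted p = 8.5e-06). The 28 host genes on the list had a median of -0.03, and 1 fell. Among ribosome biogenesis factors 2 rose and 3 fell of 84 (median -0.02), with 7 higher and 18 lower at an unadjusted p under 0.05. At that level 2365 of all 17932 genes were higher and 2285 lower. The count that fell was 8 by DESeq2, 10 with the most abundant transcript, 11 without the count filter and 6 with GC and length offsets. Over all genes, decreases of at most 2-fold also grew in these settings, from 500 to 878, 777, 793 and 743. In the direct contrast 7 were lower in siDyskerin than in siGAR1 and 0 higher, beside 2.45% and 2.63% of all genes. HEATR1, a processome protein needed for rRNA transcription, had 8249, 9341 and 9034 normalized counts in siControl and 15239, 16402 and 16269 in siDyskerin (log2 fold change 0.85 with a standard error of 0.06, adjusted p = 2.2e-06), and after GAR1 knockdown 0.84 (adjusted p = 6.0e-06). The nucleolar protein RRP1B moved the other way (-0.70, adjusted p = 1.3e-05), as did the processome member TBL3 (-0.51, adjusted p = 0.0014).

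Among all genes 3.11% rose and 3.06% fell. The shares here were 7.69% and 0% for RNA polymerase I, 0% and 5.13% for initiation and elongation factors and 3.23% and 6.45% around mTORC1. They were 0% and 14.3% for both the H/ACA and the box C/D list and 6.67% and 6.67% for m6A genes. Of 13 RNA polymerase I genes 1 rose, the subunit POLR1F (0.51, adjusted p = 6.3e-04), and 0 fell. Among initiation and elongation factors 0 rose and 2 fell of 39 (median 0.04), the repressor EIF4EBP2 (-0.67, adjusted p = 1.0e-04) and EIF5A (-0.32, adjusted p = 0.0039). Around mTORC1, the kinase complex that ties growth to nutrients, 1 rose and 2 fell of 31. The sestrins moved apart, SESN1 up (0.51, adjusted p = 0.0021) and SESN2 down, and LAMTOR1 fell (-0.38, adjusted p = 0.0097). None of 12 other pseudouridine synthases passed the test (edgeR, with 2 higher and 3 lower at an unadjusted p under 0.05, while DESeq2 called 1 higher and 1 lower and limma-voom 0 and 0), and their log2 fold changes lay between -0.28 and 0.28. Among telomerase and shelterin genes 0 of 12 passed (edgeR, with 1 higher and 2 lower at an unadjusted p under 0.05, while DESeq2 called 0 higher and 0 lower and limma-voom 0 and 0). Of all 17932 genes, 2365 were higher and 2285 lower at an unadjusted p under 0.05 (edgeR). Of 7 proteins of the H/ACA complex and its assembly 1 fell, the ATPase RUVBL1 (-0.31, adjusted p = 0.0081), and of 7 box C/D proteins 1 fell, the chaperone adaptor PIH1D1 (-0.54, adjusted p = 0.0010). The m6A methyltransferase pair split, METTL3 down and METTL14 up. METTL3 had 8395, 8129 and 7921 normalized counts in siControl and 6336, 6124 and 6277 in siDyskerin (log2 fold change -0.38 with a standard error of 0.06, adjusted p = 6.8e-04) and METTL14 had 1057, 1167 and 1234 normalized counts in siControl and 1454, 1582 and 1645 in siDyskerin (log2 fold change 0.44 with a standard error of 0.08, adjusted p = 0.0025), and they were the members past the test among 15 m6A genes. SESN1 did not pass the test without siDyskerin 3 (adjusted p up to 0.017). EIF5A did not pass the test without siControl 1 or siDyskerin 3 (adjusted p up to 0.024). METTL14 did not pass the test with 1 library left out, unless that was siControl 3 or siDyskerin 1 (adjusted p up to 0.022). LAMTOR1 and RUVBL1 did not pass the test with 1 library left out, unless that was siControl 3 (adjusted p up to 0.047). LAMTOR1 also missed the threshold with length-scaled counts, transcript length offsets or limma-voom (adjusted p up to 0.018). RUVBL1 also missed the threshold with the 6 libraries alone (adjusted p up to 0.011).

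Among genes of the tricarboxylic acid cycle and pyruvate metabolism 0 rose and 4 fell of 37 (10.8% lower, beside 3.06% of all genes, median -0.10, with 29 below 0), and 1 to 3 fell with 1 library left out, fewest without siDyskerin 2. SUCLA2, a subunit of succinyl-CoA synthetase, had 886, 1042 and 886 normalized counts in siControl and 593, 625 and 658 in siDyskerin (log2 fold change -0.59 with a standard error of 0.09, adjusted p = 6.4e-04). OGDH (-0.46, adjusted p = 0.0025), DLAT (-0.31, adjusted p = 0.0024) and SUCLG2 (-0.39, adjusted p = 0.0028) also fell. Of 76 mitochondrial ribosomal protein genes 1 rose and 5 fell (1.32% and 6.58%, beside 3.11% and 3.06%). MRPS5 (-0.65, adjusted p = 4.2e-05), MRPL49 (-0.51, adjusted p = 1.0e-04), MRPL34 (-0.65, adjusted p = 2.0e-04) and MRPS6 (-0.72, adjusted p = 1.6e-04) fell and MRPL50 rose (0.77, adjusted p = 1.5e-04), the last also after GAR1 knockdown (0.90, adjusted p = 8.3e-05). Respiratory chain genes of the nucleus had a median of -0.02, and 0 of 73 passed (edgeR, with 2 higher and 4 lower at an unadjusted p under 0.05, while DESeq2 called 1 higher and 1 lower and limma-voom 0 and 0). Of all 17932 genes, 2365 were higher and 2285 lower at an unadjusted p under 0.05 (edgeR). OGDH did not pass the test without siControl 1, siDyskerin 2 or siDyskerin 3 (adjusted p up to 0.016). SUCLG2 did not pass the test with 1 library left out, unless that was siControl 1 or siDyskerin 3 (adjusted p up to 0.017). DLAT did not pass the test with 1 library left out, unless that was siControl 1 (adjusted p up to 0.017).

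The mRNAs encoded by mitochondrial DNA were all below control on average, with log2 fold changes from -0.42 to -0.14 (median -0.25), and 0 of 13 passed the test (edgeR, with 0 higher and 6 lower at an unadjusted p under 0.05, while DESeq2 called 0 higher and 2 lower and limma-voom 0 and 0). Their summed level was 1594 to 1927 TPM in siControl and 1386 to 1611 TPM in siDyskerin, so the groups overlapped. Summed normalized counts, without the scaling for length, were 68001 to 77468 in siControl and 58296 to 66744 in siDyskerin and did not overlap. Of the 13 members, 6 had all siDyskerin libraries below all siControl libraries, with 0 above. Among all 17932 genes, 2704 were apart in this direction and 2887 in the other, 31.2% in all. At an unadjusted p under 0.05 (edgeR), 2285 of the 17932 were lower and 2365 higher. Whether the 13 members move independently of each other was not tested. After GAR1 knockdown the median was 0.08. RNA of the mitochondria enters a nuclear fraction as carry-over, and its part in the value was not tested.

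Sphingolipid metabolism changed in both directions, 3 up and 4 down of 28 (10.7% and 14.3%, beside 3.11% and 3.06% of all genes). Enzymes that fell were the ceramide kinase CERK (-1.59, adjusted p = 7.7e-08), the glucosylceramide synthase UGCG (-0.90, adjusted p = 7.1e-05), the ceramide synthase CERS5 (-0.55, adjusted p = 1.3e-04) and the acid sphingomyelinase SMPD1 (-0.72, adjusted p = 0.0018). UGCG had 1344, 1496 and 1569 normalized counts in siControl and 859, 750.2 and 745 in siDyskerin, with the groups apart. The sphingomyelin synthase SGMS2 rose, with 1980.2, 2037 and 2026 normalized counts in siControl and 3177, 3313 and 3311 in siDyskerin (log2 fold change 0.70 with a standard error of 0.06, adjusted p = 9.7e-06), and so did the acid ceramidase ASAH1 (0.36, adjusted p = 7.1e-04). In the direct contrast with siGAR1 5 members were lower and 2 higher, and SGMS2, at 0.80 after GAR1 knockdown, did not pass it (adjusted p = 0.33). Over all genes that contrast had 2.45% lower and 2.63% higher. SMPD1 did not pass the test without siDyskerin 2 (adjusted p up to 0.012).

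Among all genes 3.11% rose and 3.06% fell. The shares here were 8.33% and 0% for cholesterol synthesis, 0% and 9.52% for fatty acid synthesis and 4% and 8% for glycolysis. They were 9.09% and 0% for autophagy and 0% and 6.06% for the proteasome. Of 24 genes of cholesterol synthesis 2 rose and 0 fell, SC5D (0.50, adjusted p = 1.9e-04) and CYP51A1 (0.27, adjusted p = 0.0099). Of 21 genes of fatty acid synthesis 0 rose and 2 fell, the citrate lyase ACLY (-0.51, adjusted p = 1.3e-04) and the elongase ELOVL7 (-0.75, adjusted p = 0.0069). Of 25 glycolysis genes, the hexokinase HK2 rose (0.46, adjusted p = 0.0025), and the glucose transporters SLC2A1 (-0.57, adjusted p = 3.5e-04) and SLC2A3 (-0.29, adjusted p = 0.0077) fell. SLC2A1 differed between the knockdowns (difference -0.65, adjusted p = 1.8e-04). Of 41 lysosomal genes 2 rose and 0 fell, the protease CTSL (0.55, adjusted p = 1.0e-04) and the proton pump subunit ATP6V1A (0.49, adjusted p = 1.3e-04), a share of 4.88% beside the 3.11% of all genes, with 7 higher and 4 lower at an unadjusted p under 0.05 and 1 lower by DESeq2. Of 33 autophagy genes 3 rose and 0 fell, SQSTM1, GABARAPL1 (0.47, adjusted p = 0.0035) and the lipid kinase PIK3C3 (0.37, adjusted p = 0.0063), with 8 higher and 3 lower at an unadjusted p under 0.05 and 1 lower with the replicate block. Of all 17932 genes, 2365 were higher and 2285 lower at an unadjusted p under 0.05. Of 33 proteasome genes 0 rose and 2 fell, the activator PSME3 (-0.53, adjusted p = 9.4e-05) and PSMD13 (-0.33, adjusted p = 0.0036). ELOVL7, HK2 and GABARAPL1 did not pass the test with 1 library left out, unless that was siControl 1 or siDyskerin 3 (adjusted p up to 0.038). PSMD13 did not pass the test with 1 library left out, unless that was siControl 3 or siDyskerin 1 (adjusted p up to 0.025). PIK3C3 did not pass the test with 1 library left out, unless that was siControl 2 (adjusted p up to 0.041). CYP51A1 and SLC2A3 did not pass the test in each of the 6 fits that left out 1 library (adjusted p up to 0.062). CYP51A1 also missed the threshold with length-scaled counts, transcript length offsets, the 6 libraries alone, the replicate block or no count filter (adjusted p up to 0.027). ELOVL7, GABARAPL1 and PIK3C3 also missed the threshold with length-scaled counts or transcript length offsets (adjusted p up to 0.045). SLC2A3 also missed the threshold with the 6 libraries alone or no count filter (adjusted p up to 0.012).

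Other stress lists held members that moved in both directions. Beside 3.11% higher and 3.06% lower among all genes, 2.56% and 10.3% of the endoplasmic reticulum list, 11.4% and 2.86% of p53 targets, 3.7% and 11.1% of cytosolic chaperones, 13.3% and 10% of hypoxia-inducible factor targets and 6.45% and 3.23% of the BCL2 family and caspases passed the test. Of 39 genes of the endoplasmic reticulum and the unfolded protein response, 1 rose and 4 fell (median -0.09, and 1 to 2 fell with 1 library left out, fewest without siControl 1, siControl 2, siDyskerin 1, siDyskerin 2 and siDyskerin 3). The chaperone HYOU1 had 28764, 25803 and 27075 normalized counts in siControl and 20155, 19886 and 19232 in siDyskerin (log2 fold change -0.46 with a standard error of 0.06, adjusted p = 2.2e-04), and EDEM1, which directs misfolded glycoproteins to degradation, rose (0.50, adjusted p = 1.8e-04). Of 35 p53 targets 4 rose and 1 fell, with a median of 0.12 here and 0.14 after GAR1 knockdown, and 1 to 3 rose with 1 library left out, fewest without siDyskerin 3. TP53INP1 rose (0.77, adjusted p = 2.2e-04) and differed between the knockdowns (difference 0.79, adjusted p = 2.9e-04). Of 27 cytosolic chaperone genes 1 rose and 3 fell, FKBP4 (-0.47, adjusted p = 4.0e-04) and STIP1 (-0.36, adjusted p = 0.0010), both partners of HSP90, falling and the small heat shock protein HSPB8 rising (0.54, adjusted p = 7.1e-04). Of 30 targets of hypoxia-inducible factors 4 rose and 3 fell, and 2 to 4 rose with 1 library left out, fewest without siControl 2, siControl 3, siDyskerin 1 and siDyskerin 2. The factor EPAS1 itself fell by more than 2-fold (-1.18, adjusted p = 4.5e-05), and PLOD2, a collagen lysyl hydroxylase, rose (0.59, adjusted p = 1.4e-04). In the BCL2 family and caspases 2 rose and 1 fell of 31, with the effector BAK1 down (-0.52, adjusted p = 0.0015) and the inhibitor BCL2L1 (0.31, adjusted p = 0.0037) and the BH3-only gene BMF (1.26, adjusted p = 0.0071) up. BCL2L1 did not pass the test with 1 library left out, unless that was siControl 1 (adjusted p up to 0.028). BMF did not pass the test in each of the 6 fits that left out 1 library (adjusted p up to 0.035).

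Several adhesion and matrix genes rose. Of 33 integrin and focal adhesion genes 4 rose and 0 fell (median 0.03), which is 12.1% and 0% beside 3.11% and 3.06% of all genes. DESeq2 called 9 higher and 3 lower, as did the fit with GC and length offsets (9 and 3), and the replicate block gave 6 and 3. Over all genes, changes of at most 2-fold numbered 483 higher and 500 lower in the main fit. They numbered 834 and 878 by DESeq2, 726 and 743 with the offsets and 533 and 578 with the block. ITGB1, the common integrin beta chain, had 53759.9, 57257 and 53399 normalized counts in siControl and 81270.4, 92259 and 88063 in siDyskerin (log2 fold change 0.67 with a standard error of 0.06, adjusted p = 9.2e-06). FERMT2, the kindlin that activates it, had 20793, 23216 and 22281 normalized counts in siControl and 34174, 36602 and 34940.3 in siDyskerin (log2 fold change 0.67 with a standard error of 0.06, adjusted p = 9.3e-06). Both were also higher after GAR1 knockdown (0.63 and 0.61, adjusted p = 4.1e-05 and 6.0e-05), while ITGA6 rose less here (0.37, adjusted p = 9.9e-04). Among 54 collagen and matrix genes 6 rose and 1 fell (11.1% and 1.85%, beside 3.11% and 3.06% of all genes). Of these genes 3 to 6 rose when 1 library was left out, fewest without siControl 3 and siDyskerin 3. The cross-linking enzyme LOXL1 (0.98, adjusted p = 9.7e-05) and fibrillin FBN1 (0.87, adjusted p = 1.4e-04) rose by nearly 2-fold. THBS1 was the member that fell, with 34306, 32868 and 33617 normalized counts in siControl and 16264, 15373 and 15912 in siDyskerin (log2 fold change -1.08 with a standard error of 0.06, adjusted p = 2.7e-07), and it stood at -0.09 after GAR1 knockdown (direct contrast, adjusted p = 6.7e-07).

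Growth factor receptors moved in both directions, 4 up and 3 down of 34 (median 0.14). These are 11.8% and 8.82%, beside 3.11% and 3.06% of all genes. The shares were 7.5% and 2.5% for the MAPK list and 12.9% and 3.23% for NF-kB targets. EGFR had 2615, 2513 and 2707 normalized counts in siControl and 1504, 1547 and 1399 in siDyskerin (log2 fold change -0.81 with a standard error of 0.08, adjusted p = 1.0e-05), with -0.59 after GAR1 knockdown. PDGFRA had 605, 602 and 508 normalized counts in siControl and 1181, 1044 and 1233 in siDyskerin (log2 fold change 1.01 with a standard error of 0.11, adjusted p = 3.9e-05), and FGFR1 rose less (0.47, adjusted p = 3.3e-04). The EGFR ligands AREG (0.77, adjusted p = 4.8e-04) and EREG (0.82, adjusted p = 0.0040) rose, both listed among 40 MAPK feedback and early genes, of which 3 rose and 1 fell. Of 31 NF-kB targets 4 rose and 1 fell (2 to 3 rose with 1 library left out, fewest without siControl 2, siControl 3, siDyskerin 1 and siDyskerin 3), with TRAF1 (1.12, adjusted p = 1.2e-05) and PTX3 (1.02, adjusted p = 8.8e-05) up more than 2-fold and at 1.06 and 1.30 after GAR1 knockdown. NFKBIZ fell (-0.43, adjusted p = 4.9e-04). No interferon response gene passed the test, 0 of 35 (edgeR, with 2 higher and 6 lower at an unadjusted p under 0.05, while DESeq2 called 0 higher and 0 lower and limma-voom 0 and 0). Of all 17932 genes, 2365 were higher and 2285 lower at an unadjusted p under 0.05 (edgeR). EREG did not pass the test with 1 library left out, unless that was siControl 1 or siDyskerin 1 (adjusted p up to 0.024). EREG also missed the threshold with length-scaled counts or transcript length offsets (adjusted p up to 0.080).

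Among all genes 3.11% rose and 3.06% fell. The shares here were 10.8% and 2.7% for actin and SRF targets, 12% and 8% for YAP and TEAD targets and 8.11% and 2.7% for the Wnt list. They were 7.14% and 7.14% for ephrins and their receptors and 17.6% and 5.88% for bone genes. Among actin and SRF targets 4 rose and 1 fell of 37, and 2 to 3 rose with 1 library left out, fewest without siControl 2, siControl 3, siDyskerin 2 and siDyskerin 3. Calponin CNN1 had 1437, 1268 and 1363 normalized counts in siControl and 2482, 2217 and 2137 in siDyskerin (log2 fold change 0.75 with a standard error of 0.09, adjusted p = 6.4e-05), with -0.40 after GAR1 knockdown and a difference between the knockdowns of 1.15 (adjusted p = 3.0e-06). The cytoplasmic actin ACTG1 fell (-0.69, adjusted p = 9.8e-05) and FHL2 rose (0.37, adjusted p = 5.9e-04). Among YAP and TEAD targets 3 rose and 2 fell of 25, with 0 to 3 rising when 1 library was left out, fewest without siControl 2 and siDyskerin 3, and the kinase LATS2 falling (-0.48, adjusted p = 0.0025). In the TGF-beta list 1 rose and 2 fell of 36 (2.78% and 5.56%, beside 3.11% and 3.06% of all genes), those that fell being the activin antagonist FST (-0.99, adjusted p = 8.5e-07) and TGFBI (-0.61, adjusted p = 1.2e-04). In the Wnt list 3 rose and 1 fell of 37 (1 to 2 rose with 1 library left out, fewest without siDyskerin 2 and siDyskerin 3), the receptor FZD6 rising here (0.40, adjusted p = 0.0014) and falling after GAR1 knockdown (-0.63, adjusted p = 8.3e-05). Of 14 ephrins and their receptors, EPHA4 rose (1.76, adjusted p = 1.9e-07) and EFNA3 fell (-0.98, adjusted p = 0.0087). Of 17 bone genes 3 rose and 1 fell, among them osteopontin, SPP1, up (1.52, adjusted p = 1.4e-06). FZD6 did not pass the test without siDyskerin 2 or siDyskerin 3 (adjusted p up to 0.012). LATS2 did not pass the test with 1 library left out, unless that was siControl 2 or siDyskerin 1 (adjusted p up to 0.017). EFNA3 did not pass the test with 1 library left out, unless that was siControl 3 (adjusted p up to 0.042). LATS2 also missed the threshold with length-scaled counts or transcript length offsets (adjusted p up to 0.051). EFNA3 also missed the threshold with length-scaled counts, transcript length offsets, the 6 libraries alone, the replicate block or GC and length offsets (adjusted p up to 0.026).

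The RNA processing machinery, whose spliceosomal RNAs are substrates of the complex, changed in few members. Among all genes 3.11% rose and 3.06% fell. The shares here were 0% and 1.41% for spliceosome core genes and 2.13% and 4.26% for SR proteins and hnRNPs. They were 3.57% and 3.57% for exosome and decay genes and 0% and 8% for export and the pore. For the polymerase II list they were 1.41% and 5.63%, and for nuclear long noncoding RNAs 9.09% and 0%. Of 71 spliceosome core genes 1 fell, LSM7 (-0.46, adjusted p = 0.0024), and 0 rose, with a median of -0.02. Among SR proteins and hnRNPs 1 rose and 2 fell of 47, PTBP3 (-0.41, adjusted p = 0.0032) and SRPK1 (-0.29, adjusted p = 0.0088) falling and HNRNPR (0.25, adjusted p = 0.0066) rising. Of 28 exosome and decay genes the deadenylase TOE1 fell (-0.42, adjusted p = 8.4e-04) and the exonuclease XRN1 rose (0.59, adjusted p = 8.5e-04). None of 19 nonsense-mediated decay factors passed (edgeR, with 2 higher and 2 lower at an unadjusted p under 0.05, while DESeq2 called 0 higher and 0 lower and limma-voom 0 and 0). Of all 17932 genes, 2365 were higher and 2285 lower at an unadjusted p under 0.05 (edgeR). In mRNA export and the nuclear pore 0 rose and 4 fell of 50, the helicase DDX39A first (-0.46, adjusted p = 9.2e-04), and 1 to 3 fell with 1 library left out, fewest without siControl 1, siControl 2, siDyskerin 2 and siDyskerin 3. In RNA polymerase II, Mediator and elongation 1 rose and 4 fell of 71. The elongation factor ELL2 had 1531, 1777 and 1708 normalized counts in siControl and 924, 1060.1 and 994 in siDyskerin (log2 fold change -0.75 with a standard error of 0.09, adjusted p = 6.9e-05), while AFF4, the scaffold of the super elongation complex, had 10506, 10737 and 11007 normalized counts in siControl and 14544, 14949 and 14874 in siDyskerin (log2 fold change 0.46 with a standard error of 0.05, adjusted p = 7.6e-05). ELL2 stood at 0.29 after GAR1 knockdown (direct contrast, adjusted p = 5.9e-06). Of 11 nuclear long noncoding RNAs 1 rose, MIAT (1.11, adjusted p = 0.0019), and 0 fell. MIAT did not pass the test without siControl 3 or siDyskerin 3 (adjusted p up to 0.011). LSM7 did not pass the test without siControl 2, siDyskerin 2 or siDyskerin 3 (adjusted p up to 0.015). PTBP3 did not pass the test with 1 library left out, unless that was siControl 1 or siDyskerin 2 (adjusted p up to 0.022). SRPK1 and HNRNPR did not pass the test in each of the 6 fits that left out 1 library (adjusted p up to 0.049). SRPK1 also missed the threshold with length-scaled counts or transcript length offsets (adjusted p up to 0.018). HNRNPR also missed the threshold with GC and length offsets or the most abundant transcript (adjusted p up to 0.068).

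**Figure D4:**
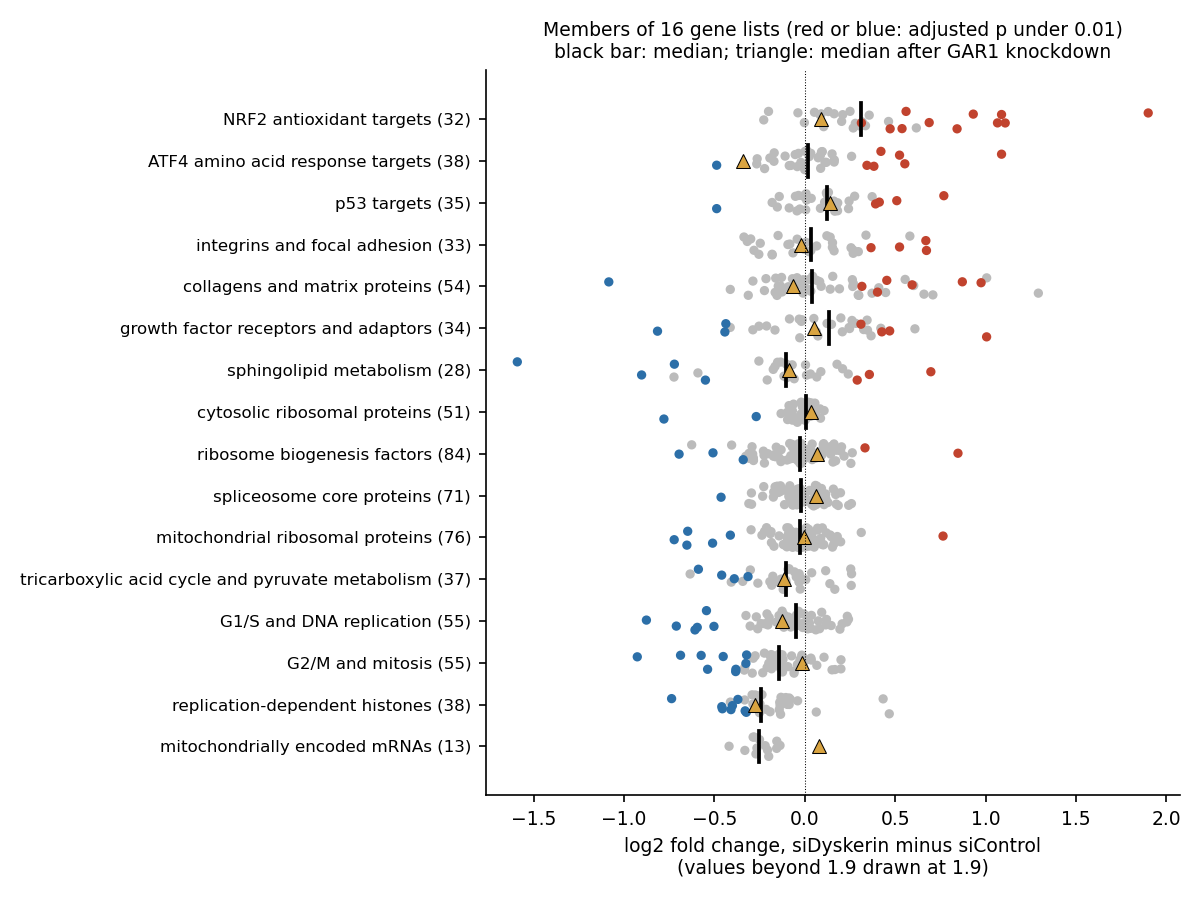
Log2 fold change of each tested member of 16 gene lists in siDyskerin against siControl (number of members in parentheses), in red or blue where the adjusted p was under 0.01, with a black bar at the median and a triangle at the median after GAR1 knockdown. NRF2 targets stand furthest right of 0 (median 0.31), and G2/M genes, histones and mitochondrial mRNAs stand left of it (medians -0.14, -0.24 and -0.25).

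The protein-coding genes with the smallest p among changes of at most 2-fold were of varied function. VPS4B, the ATPase that disassembles the ESCRT machinery, had 2455, 2498 and 2470.2 normalized counts in siControl and 4572, 4637 and 4881 in siDyskerin (log2 fold change 0.92 with a standard error of 0.07, adjusted p = 2.1e-06). SETD7, a lysine methyltransferase, had 3169, 3344 and 3449 normalized counts in siControl and 5829.5, 6021 and 5784 in siDyskerin (log2 fold change 0.82 with a standard error of 0.06, adjusted p = 2.2e-06). The growth factor FGF1 had 6578, 6769.9 and 6804 normalized counts in siControl and 10451, 11143 and 10793 in siDyskerin (log2 fold change 0.68 with a standard error of 0.06, adjusted p = 6.7e-06). Groups were apart in all of them. MIGA1, a mitochondrial fusion protein (0.92, adjusted p = 5.8e-06), GNPNAT1, an enzyme of UDP-GlcNAc synthesis (0.88, adjusted p = 9.2e-06), FRMD6 of the Hippo pathway (0.65, adjusted p = 5.2e-06), the hyaluronidase CEMIP2 (0.60, adjusted p = 8.3e-06) and PKIB, an inhibitor of protein kinase A (1.00, adjusted p = 9.2e-06), were among the others that rose, as were ALPK2 (0.81) and TMCC1 (0.72).

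On the lower side, the small GTPase CDC42 had 13919, 13473 and 13465 normalized counts in siControl and 8125, 8832 and 8743 in siDyskerin (log2 fold change -0.67 with a standard error of 0.06, adjusted p = 6.6e-06). The chromatin protein PHF6 had 4148, 4792 and 4709.6 normalized counts in siControl and 2265, 2442 and 2503 in siDyskerin (log2 fold change -0.92 with a standard error of 0.07, adjusted p = 3.8e-06). NF2, the tumour suppressor merlin of the Hippo pathway, had 75393, 69018 and 75329 normalized counts in siControl and 45103, 44476 and 41834 in siDyskerin (log2 fold change -0.74 with a standard error of 0.07, adjusted p = 9.2e-06). The 3 siDyskerin libraries were below the 3 siControl libraries in each. PRAME (-0.73), the ciliary gene CLUAP1 (-0.81), the Polycomb gene CBX6 (-0.94), PNMA2 (-0.93), LANCL2 (-0.86), LCMT1, which methylates protein phosphatase 2A (-0.99), and the disulfide isomerase TXNDC5 (-0.62) fell too, each at an adjusted p of 9.2e-06 or less. After GAR1 knockdown CBX6 stood at -0.92, VPS4B at 0.82 and MIGA1 at 0.81, and none of these passed the test in the direct contrast (adjusted p = 0.92, 0.37 and 0.39). PHF6 stood at -0.02, LCMT1 at 0.07 and PKIB at -0.06, and these did differ (adjusted p = 5.3e-06, 5.9e-06 and 8.1e-06). All of these genes, higher and lower, passed the test under every alternative tried.

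Changes over 2-fold were few among genes that host no small RNA. SLC25A22, a mitochondrial glutamate carrier, had 2846, 2053 and 1885 normalized counts in siControl and 927, 472 and 883 in siDyskerin (log2 fold change -1.58 with a standard error of 0.22, adjusted p = 3.0e-04), and PRKACA, the catalytic subunit of protein kinase A, had 1292, 978 and 909 normalized counts in siControl and 492, 445 and 392 in siDyskerin (log2 fold change -1.26 with a standard error of 0.14, adjusted p = 5.9e-05), the kinase that PKIB inhibits. RGS14, a regulator of G protein signalling, fell too (-1.29, adjusted p = 1.1e-04). Among those that rose were TMEM40 (1.69, adjusted p = 2.1e-05) and the cytochrome CYP4F11 (1.56, adjusted p = 3.5e-04). After GAR1 knockdown SLC25A22, PRKACA and RGS14 stood at -0.16, -0.18 and -0.09, and each differed between the knockdowns (adjusted p = 9.8e-04, 2.6e-04 and 2.9e-04).

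The direction of the small changes went with base composition. Higher genes had a median GC content of 44.3% in their canonical transcript and lower genes 50.6%, against 48% for all tested genes. Protein-coding genes were put in 5 bins of equal size by GC content. The share that rose was 5.71% in the lowest bin and 1.29% in the highest, and the share that fell was 2.8% in the lowest, 4.99% in bin 4 and 3.7% in the highest. The median log2 fold change ran from 0.06 to -0.05. Single libraries differed in this by as much within a group. The median gene of the lowest bin stood at -0.12 in siControl 1, 0.07 in siControl 2 and 0.05 in siControl 3, on the log2 scale relative to the siControl mean, and at -0.01, 0.11 and 0.10 in siDyskerin. siControl 1 and siDyskerin 1 thus stood apart from the other libraries of their groups in the same direction.

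With offsets that removed each library's trend with GC content and length, 726 genes rose and 743 fell by at most 2-fold, more than without them. The NRF2 list then had 15 members up and 0 down (median 0.32), the G2/M list 0 up and 12 down (median -0.18) and the histone list 0 up and 7 down (median -0.17).

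**Figure D5:**
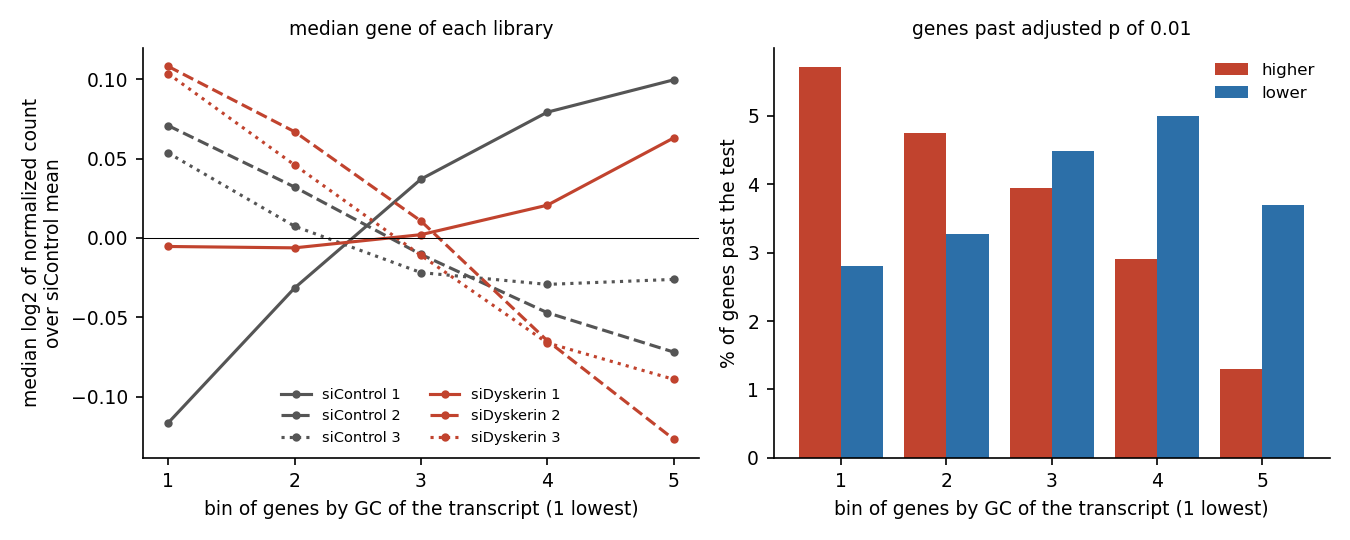
Left, the median over protein-coding genes of the log2 normalized count over the siControl mean, in 5 bins of genes by GC content of the canonical transcript, with a line for each library. Right, the percentage of genes in each bin that rose (red) or fell (blue) at an adjusted p under 0.01. The lines of siControl 1 and siDyskerin 1 end higher than they start while the other 4 end lower, and the red bars shrink from the lowest to the highest bin.

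Higher genes were also long. Their median span in the genome was 55188 bases, against 36113 for lower genes and 27598 for all tested, and their median transcript length was 4348 bases, against 3492 and 2799. Both sets had higher counts than all tested genes, with a median log2 CPM (counts scaled to library size) of 5.16 and 5.19 against 3.09. The test reaches small changes more easily at high counts. Because a read appears to have been counted in each transcript it fitted and CPM is not scaled for length, this does not compare abundance between genes. Of 13923 protein-coding genes 518 rose and 536 fell at any size. Of 2472 long noncoding RNA genes 32 rose and 13 fell. By chromosome, the share of genes that rose was highest on chromosome 4 (5.56% of 629 tested, with 2.70% lower), followed by chromosome 18 (5.37% of 298, with 1.01% lower), and lowest among the numbered chromosomes on chromosome 19 (1.09% of 1196, with 3.09% lower).

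Promoters of the small changes were compared by the share that held each of 14 motifs in the 250 bases before the start, on either strand. The AP-1 site TGANTCA was in 6.06% of 462 promoters of higher genes, 3.04% of 494 of lower genes and 3.67% of all. The cAMP response element TGACGTCA, whose first letters it shares with the antioxidant core, was in 1.95%, 5.06% and 2.92%. The ETS site CCGGAAGT was in 3.46%, 7.89% and 6.84%, the CCAAT box in 30.3%, 39.1% and 34.5%, and the E2F site TTCCCGC in 6.06%, 10.7% and 8.85%. On the list of S phase entry and replication, the E2F site was in 15 of 55 promoters and in 0 of 6 of those that fell. The cell cycle homology region was in 6.06%, 8.10% and 8.23%, and the composite site of ATF4 and C/EBP, TGATGNAA, in 1.95%, 1.21% and 1.46%. The antioxidant core was in 10.2% and 10.7%, below its share over all promoters in both. GC content differed between the sets, and its part in these shares was not tested.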

How the data were processed

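Nuclear RNA of U2OS cells was sequenced as paired reads in 9 libraries, 3 each for siControl, siDyskerin and siGAR1. Per the labels and the study's methods, the authors ran FastQC 0.11.9, Trim Galore 0.6.4, Bowtie2 2.4.1, STAR 2.7.0e and Salmon 1.2.0. The deposited tables hold an estimated count and a TPM for each of 200401 transcripts. The estimated counts were whole numbers for nearly all transcripts. Of 1878 pairs of transcripts in which the longer contains the shorter, at most 61 in a library had fewer reads in the longer. A read thus appears to have been counted in every transcript it was compatible with, in which case gene sums exceed read pairs. The TPM values, as the authors deposited them, were used for marker levels only.

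Counts were rounded and summed per gene with GENCODE 44, in which 195887 of 200243 identifiers were found. The rest held 3.69% to 3.84% of reads and were left out. The edgeR 4.0.16 filter filterByExpr, TMM factors and quasi-likelihood test (R 4.3.3) were applied to all 9 libraries in 1 fit, with adjusted p under 0.01 as threshold. DESeq2 1.42.0, limma-voom 3.58.1, other scalings and filters, other ways of summing transcripts, offsets for GC content and length, and fits without 1 library were tried. The script was tested on simulated counts. Replicate numbers did not pair the libraries by the rule used (every same-number correlation above 0.1), since correlations of same-numbered siControl and siDyskerin libraries were 0.104, 0.0739 and 0.0386.

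The members and the gene lists were chosen with earlier results of these data known. Named genes were, from each list, at most 3 that passed the threshold, taken by smallest p, the 12 higher and 12 lower protein-coding genes of at most 2-fold change with the smallest p, and the 8 higher and 8 lower genes with the largest change. Some of these are not printed, and further members of a list were named after their values were seen. Some results are not reported here. Promoter sequence is GRCh38 before the GENCODE 44 start of the canonical transcript.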

Additional observations from a re-analysis of the deposited data

Results flagged for a closer look

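The 4356 transcript identifiers without a gene in the annotation were outside the comparison of genes. After the count filter 2567 of them were tested on their own in the same way. Of the 2567, 106 were higher and 97 lower in siDyskerin than in siControl (edgeR, adjusted p under 0.01). Among the 17932 genes, 557 were higher (3.11%) and 549 lower (3.06%). They are given as counts, since no gene name was assigned to them.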

How the results depend on the processing

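The counts were 483 higher and 500 lower genes of at most 2-fold change and 74 higher and 49 lower over 2-fold. DESeq2 gave 834, 878, 87 and 53. Without the low-count filter there were 745, 793, 159 and 123, with the most abundant transcript of each gene 657, 777, 89 and 55, and with offsets for GC content and length, chosen after seeing the data, 726, 743, 75 and 49. At an adjusted p under 0.05 there were 1000, 1059, 151 and 80. Counts fell to 338 and 394 small changes with length-scaled counts. With 1 library left out they ranged from 265 to 366 and 291 to 389 for small changes, and from 53 to 62 and 31 to 46 over 2-fold. In these fits 1 group has fewer libraries and the spread is estimated over the rest. The cause of these shifts was not tested.

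With the replicate block there were 533, 578, 79 and 50. Each siControl library correlated best with the siDyskerin library of its own number in 3 of 3 cases, which is a hint from the data and not the design.

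The log2 fold change of DKC1 ranged from -2.82 to -2.76 with 1 library left out. That of NOP10, 0.02 and not past the test, was -0.0056 with the most abundant transcript, and ranged from -0.064 to 0.049 with 1 library left out, at -0.064 without siControl 3 and -0.052 without siDyskerin 2. Of 216 named genes, 129 kept their call under every alternative. Depth limits changes in genes of low count, and the smallest change called among genes that host no small RNA was 0.25 on the log2 scale.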
